A study of Mus musculus with 17 samples.

Results

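Transcript levels of 7 genes, Tff3, Vil1, Timp4, Slc1a1, Ptges, Akr1b7 and Dpf1, were examined by RNA-seq in livers and liver tumors of mice with a hepatic NgBR deletion. All 7 were near-silent in livers and counted in tumors. They were chosen by their counts in these same Western diet (WD) libraries, so their tumor levels are given as a description without a test. They are 7 of the 24233 genes in the WD table, and 3 of them (Tff3, Ptges and Akr1b7) are among the 19151 genes in the high-fat diet (HFD) table. Vil1, Timp4, Slc1a1 and Dpf1 are not listed under HFD, where each listed gene holds at least 3 counts in all and a count in at least 2 libraries.

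NgBR, encoded by Nus1, is a subunit of the cis-prenyltransferase that makes dolichol, the lipid carrier of protein glycosylation. Male mice on a C57BL6 background carried a loxP-flanked NgBR allele and albumin-Cre, which acts in hepatocytes (N-LKO), and WT mice without the deletion served as controls. After 16 weeks, 4 livers per genotype had been taken under HFD. Under WD, which was high in fat and cholesterol, 3 livers came from WT mice, and N-LKO mice gave 3 livers and 3 tumors. The labels call these biological replicates but name no mouse. They do not say whether a tumor and an N-LKO liver came from the same mouse, although some library names share a number. Total counts ran from 9096110 to 12215784 per HFD library and from 15494731 to 20200618 per WD library, and values are given as CPM, counts scaled to the size of the library. At these depths 3 counts make 0.142 to 0.206 CPM in a WD liver and 0.133 to 0.156 CPM in a tumor. Nus1 itself lay at 88.1 to 98.8 CPM in WD WT livers, 41.6 to 51.1 in WD N-LKO livers and 28.9 to 43.9 in tumors, and at 82.4 to 96 against 29.3 to 37.9 CPM in HFD WT and N-LKO livers.

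The 7 genes have no single pathway in common. Tff3 and Vil1 are best known from the gut: trefoil peptides are secreted with mucus and help a damaged epithelium to close, and villin bundles the actin of microvilli in the brush border. The others are textbook genes of other tissues or are low in hepatocytes: an inhibitor of matrix metalloproteinases (Timp4), a transporter of glutamate and cysteine (Slc1a1), the inducible enzyme of prostaglandin E synthesis (Ptges), an aldo-keto reductase of the adrenal cortex and vas deferens (Akr1b7), and a chromatin remodeling subunit of neurons (Dpf1). Bulk RNA cannot tell fewer cells that express a gene from less of its RNA per cell, and this holds for every value below.

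The 3 tumors did not carry these genes to the same extent. Tff3, Timp4 and Dpf1 were highest in tumor 3, Vil1, Slc1a1 and Ptges in tumor 2, and Akr1b7 in tumor 1. Tumor 1 was the lowest of the tumors for every one of the 7 but Akr1b7, which was lowest in tumor 2. All 7 were higher in each tumor than in each of the 6 WD livers, which is what they were chosen for. Of the 17829 WD genes that passed the filter on low counts, 8.05% were arranged in this way. All 7 passed that filter, which for genes at this liver level can be met through the tumors alone.

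**Figure D1:**
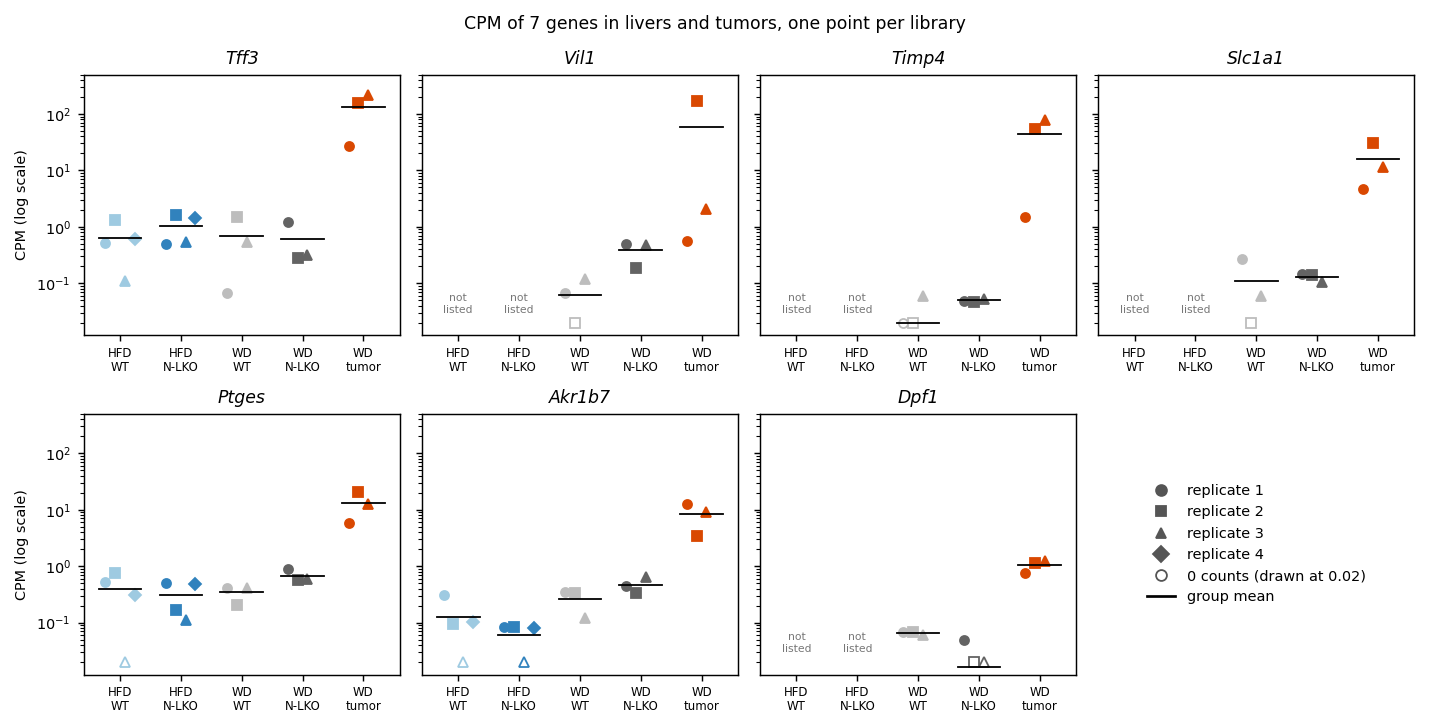
CPM of each gene on a log axis in every library of the 5 groups, with 1 point per library, the marker shape giving the replicate number, a bar at the group mean and open markers for libraries at 0 counts. The tumor points lie above all WD liver points in each panel, but for Vil1 tumor 1 (0.552 CPM) is next to the highest N-LKO liver (0.489 CPM) while tumor 2 is at 172 CPM.

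Tff3 encodes trefoil factor 3, the trefoil peptide of intestinal goblet cells. Its gene lies at chr17:31125306-31129646 on the minus strand (GRCm38) and has 3 exons. Tumors 1, 2 and 3 had 27.3, 156 and 215 CPM (544, 3507 and 4126 counts). WD WT livers had 0.0686, 1.49 and 0.536 CPM, and WD N-LKO livers 1.22, 0.284 and 0.319. Tff3 was thus detected in all 6 livers, at 1 to 25 counts, and the lowest tumor stood far above the highest liver. The tumor mean of 133 ± 95.8 CPM (SD, n = 3) was 218 times the N-LKO liver mean (95% counting interval 157 to 307) and 190 times the WT mean (135 to 280). These exact binomial intervals cover counting error only. Against the N-LKO mean, the single tumors gave ratios of 44.9, 256 and 353. Per kilobase of annotated exon, Tff3 had the highest level of the 7 genes in every tumor, at 55.4, 316 and 436 CPM per kb.

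Vil1 encodes villin, the actin-bundling protein of microvilli. It spans chr1:74409376-74435559 (plus strand) with 20 exons in the main transcript. Tumors had 0.552, 172 and 2.03 CPM (11, 3880 and 39 counts). WD WT livers had 0.0686, 0 and 0.119 CPM, at most 2 counts, and WD N-LKO livers 0.489, 0.19 and 0.478 CPM, or 10, 4 and 9 counts. Only tumor 2 was far from the N-LKO livers, and it held 98.5% of the CPM summed over the tumors. The tumor mean of 58.2 ± 98.7 CPM was 151 times the N-LKO mean (95% counting interval 111 to 264), but without tumor 2 the ratio was 3.35. Against WT livers, which were all at or under 3 counts, the tumor mean was at least 283-fold higher, or at least 6.27-fold higher without tumor 2. The ratio of the highest to the lowest tumor was 312, and 0.0112% of the 17829 tested genes had one as large. This share leaves out genes below the filter, and Vil1 was chosen by its tumor counts, so it is a description only. Vil1 overlaps the end of Usp37 on the other strand by 49 bases. The RefSeq promoter of Vil1, 250 bases before to 50 after the start (GRCm38.p6, chr1:74409134-74409433, plus strand), is shown because no other of these genes differed as much between tumors. Capitals mark the match to a GC box (GGGCGG on either strand, present in 35.7% of 32851 promoters of this length).
Vil1: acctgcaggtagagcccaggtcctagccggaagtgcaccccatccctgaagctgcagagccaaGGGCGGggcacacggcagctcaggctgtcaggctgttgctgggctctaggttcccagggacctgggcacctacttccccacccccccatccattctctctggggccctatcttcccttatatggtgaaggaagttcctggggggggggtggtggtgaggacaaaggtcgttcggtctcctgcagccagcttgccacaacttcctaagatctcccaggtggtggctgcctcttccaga

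Timp4 encodes a tissue inhibitor of metalloproteinases. It lies at chr6:115241892-115252205 (minus strand) with 5 exons in the main transcript. Tumors had 1.51, 53.4 and 77.9 CPM (30, 1203 and 1496 counts). WD WT livers had 0, 0 and 0.0596 CPM, and each WD N-LKO liver had 1 count, or 0.0489, 0.0474 and 0.0531 CPM. Tumors 2 and 3 were therefore far above tumor 1, and tumor 1 was above all livers. The mean of 44.2 ± 39 CPM was at least 278-fold higher than N-LKO livers and at least 215-fold higher than WT livers, taking 3 counts per library as the floor. By tumor the bounds over N-LKO liver were 9.45, 335 and 488, and without tumor 3 the bound on the mean was 172 over N-LKO and 133 over WT liver. Timp4 lies whole inside Syn2, which is read from the other strand, and whether the counting used strand is not stated. Syn2, the neuronal synapsin 2 gene, had 2.86, 2.8 and 2.45 CPM in tumors against 0.147 to 0.372 in N-LKO and 0 to 0.0678 in WT livers (log2 fold change 3.50 over N-LKO liver, edgeR adjusted p = 0.0151). At these liver levels Syn2 too passed the filter through the tumors, so this p is a description. In tumor 1 the level of Timp4 was below that of Syn2, and in tumors 2 and 3 far above it. The Timp4 promoter (chr6:115252156-115252455, minus strand) is shown as the poorest of the 6 in CpG. Capitals mark 2 matches to the antioxidant response element letters TGACNNNGC, found in 12.4% of promoters.
Timp4: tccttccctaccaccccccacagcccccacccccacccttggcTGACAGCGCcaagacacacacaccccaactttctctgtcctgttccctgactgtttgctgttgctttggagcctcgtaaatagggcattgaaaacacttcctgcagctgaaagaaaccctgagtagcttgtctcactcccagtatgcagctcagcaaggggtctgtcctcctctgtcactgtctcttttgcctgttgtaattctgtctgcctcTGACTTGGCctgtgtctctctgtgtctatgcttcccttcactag

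Slc1a1 encodes the high-affinity transporter of glutamate, aspartate and cysteine found in kidney, gut and neurons. It lies at chr19:28835049-28913960 on the plus strand, with 12 exons in its main transcript. Tumors had 4.62, 30.9 and 11.5 CPM (92, 697.149 and 221 counts). WD WT livers had 0.274, 0 and 0.0596 CPM (4, 0 and 1 counts), and WD N-LKO livers 0.147, 0.142 and 0.106 CPM (3, 3 and 2 counts). The mean of 15.7 ± 13.6 CPM was at least 98.4-fold higher than N-LKO livers. Because 1 WT library had 4 counts, just over the floor, the value over WT livers is a ratio, 141 (95% counting interval 64.5 to 466). Without tumor 2 these became 50.6 and 72.4. All tumors stood apart from all livers, and tumor 2 gave 65.7% of the summed CPM. The fractional count in tumor 2 is an estimate that shares reads between features, and Slc1a1 overlaps Gm5822 and 4430402I18Rik on the other strand.

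Ptges encodes the microsomal prostaglandin E synthase that is induced in inflammation and acts after the cyclooxygenases. It lies at chr2:30889471-30929863 on the minus strand, with 3 exons in its main transcript. Tumors had 5.92, 20.5 and 12.7 CPM (118, 461 and 244 counts). WD WT livers had 0.411, 0.203 and 0.417 CPM, and WD N-LKO livers 0.88, 0.569 and 0.584. The tumors spread less than for the genes above, 3.45-fold between highest and lowest. The mean of 13 ± 7.27 CPM was 19.2 times that of N-LKO livers (95% counting interval 14.4 to 27.6) and 37.9 times that of WT livers (23.5 to 67.6).

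Akr1b7 encodes an aldo-keto reductase that reduces aldehydes. It lies at chr6:34412334-34423142 on the plus strand, with 10 exons, in a row with the related Akr1b3, Akr1b8 and Akr1b10. Tumors had 12.6, 3.46 and 9.11 CPM (78 to 250 counts). WD WT livers had 0.343, 0.339 and 0.119 CPM, and WD N-LKO livers 0.44, 0.332 and 0.637. It was the only one of the 7 with its highest value in tumor 1. The mean of 8.37 ± 4.59 CPM was 17.8 times that of N-LKO livers (95% counting interval 12 to 26.7) and 31.4 times that of WT livers (17.8 to 61.1). Its paralogs share sequence. Its counts in all WD libraries were whole numbers, which does not show that reads were given to the right paralog, and this was not tested. The Akr1b7 promoter (chr6:34412112-34412411, plus strand) is shown because it was the only one of 6 with a match to the letters of a forkhead (FOXA, TGTTTAC, 3.65% of promoters) and of a caudal-type (CDX, TTTATNG, 10.9%) motif, factors known from liver and gut. Capitals mark these and 2 CCAAT boxes (37.4%). A CCAAT box and the CDX match overlap.
Akr1b7: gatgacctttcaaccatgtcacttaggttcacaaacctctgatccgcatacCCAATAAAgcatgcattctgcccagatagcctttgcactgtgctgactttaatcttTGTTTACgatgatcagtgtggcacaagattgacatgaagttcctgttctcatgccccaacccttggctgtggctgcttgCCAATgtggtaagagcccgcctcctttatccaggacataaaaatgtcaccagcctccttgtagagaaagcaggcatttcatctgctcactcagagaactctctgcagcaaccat

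Dpf1 encodes a subunit of the neuronal form of the BAF chromatin remodeling complex. It lies at chr7:29303951-29318243 on the plus strand, with 12 exons in its main transcript. Tumors had 0.753, 1.15 and 1.25 CPM (15, 26 and 24 counts). Each WD WT liver had 1 count, or 0.0686, 0.0678 and 0.0596 CPM, and WD N-LKO livers had 1, 0 and 0 counts. Its mean tumor CPM was the lowest of the 7 genes, although in tumor 1 Vil1 was lower (0.552 CPM), and its tumor values were the most even, 1.66-fold between highest and lowest, a ratio reached by 42.4% of tested genes. The mean of 1.05 ± 0.263 CPM was at least 6.6-fold higher than N-LKO livers and at least 5.11-fold higher than WT livers. The Dpf1 promoter (chr7:29303755-29304054, plus strand) is shown as the richest in CpG, with capitals on 4 GC boxes and 2 CCAAT boxes.
Dpf1: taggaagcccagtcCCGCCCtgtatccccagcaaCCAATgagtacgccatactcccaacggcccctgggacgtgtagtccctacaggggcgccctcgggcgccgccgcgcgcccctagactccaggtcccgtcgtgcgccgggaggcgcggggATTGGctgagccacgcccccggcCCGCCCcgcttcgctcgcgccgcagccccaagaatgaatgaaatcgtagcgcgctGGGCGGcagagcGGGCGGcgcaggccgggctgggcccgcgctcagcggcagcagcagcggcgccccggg

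Promoters from RefSeq matched 6 of the 7 genes, all but Tff3. The ratio of observed to expected CG dinucleotides was 0.104 for Timp4, 0.175 for Vil1, 0.188 for Akr1b7 and 0.371 for Ptges, against a median of 0.384 over all promoters. Slc1a1 at 0.863 and Dpf1 at 0.953 were higher than 84.5% and 91.3% of promoters or equal to them. The promoters were therefore of both kinds. A GC box was found in 4 of the 6 (Vil1, Slc1a1, Ptges and Dpf1). The letters of a TATA box (TATAAA, 13.6% of promoters), an HNF1 site (GTTAAT, 7.1%), HNF4 (CAAAGNNCA, 6.36%), TCF/LEF (CTTTGAT, 3.73%), AP-1 (TGANTCA, 7.81%), SF-1 (CAAGGTCA, 1.56%) and a GATA factor (letters AGATAA, 11.2%), read on both strands, were in none of the 6 windows. Such matches describe letters only. For Ptges the RefSeq start lies inside the longer gene model used for the counts.

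The spread between tumors was then set against that of other genes. Over the 17829 tested WD genes, the median ratio of the highest to the lowest tumor was 1.55, and 230 genes (1.29%) had a ratio of 10 or more. Genes below the filter are absent from these shares, among them Ptgds, at 0.502, 7.5 and 536 CPM in tumors. The 7 genes were chosen by their tumor counts, so the shares are a description only. Of the 7 genes, 2 passed this mark, Vil1 and Timp4 with 312 and 51.7. Tff3 at 7.86, Slc1a1 at 6.7, Akr1b7 at 3.63 and Ptges at 3.45 were lower, and 1.99%, 2.65%, 7.23% and 7.99% of genes had ratios as large as theirs. Per kilobase of exon, Tff3 was followed by Akr1b7 in tumor 1 (9.8 CPM per kb), by Vil1 in tumor 2 (48.5) and by Timp4 in tumor 3 (13.2). Dpf1 was last in each tumor, at 0.14, 0.215 and 0.232 CPM per kb. In tumor 1 the level of Vil1 (0.156) was close to that of Dpf1.

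**Figure D2:**
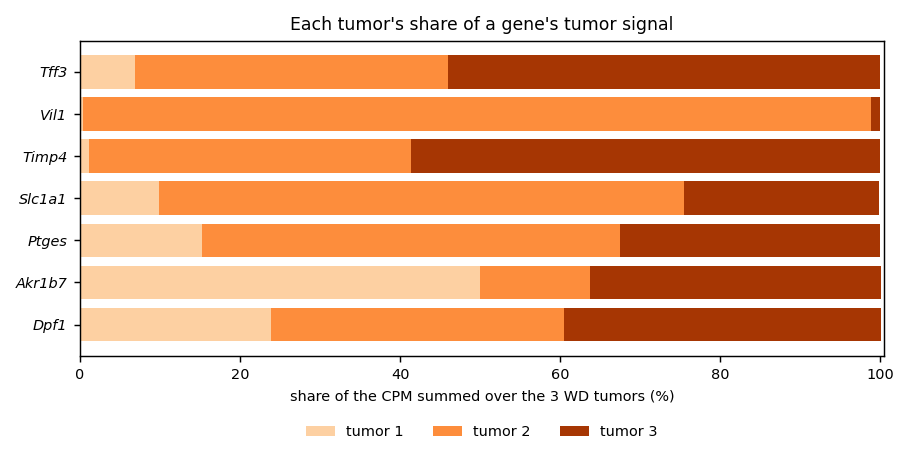
Share of each tumor, in percent, in the CPM of a gene summed over the 3 WD tumors, with 1 bar per gene. Tumor 2 makes up 98.5% of Vil1, tumors 2 and 3 make up 40.2% and 58.7% of Timp4, and tumor 1 makes up 50% of Akr1b7.

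The comparison of N-LKO with WT liver asks whether the genes were already raised in livers of the knockout. Under HFD, Tff3 had 0.52, 1.34, 0.111 and 0.61 CPM in WT and 0.496, 1.64, 0.543 and 1.44 CPM in N-LKO livers. Ptges had 0.52, 0.763, 0 and 0.305 CPM in WT livers and 6, 2, 1 and 6 counts (0.109 to 0.496 CPM) in N-LKO livers. Akr1b7 had at most 3 counts in any HFD library. The groups overlapped for all 3 genes. None of the 3 passed the filter on low counts. Fitted without that filter in edgeR, the log2 fold changes of N-LKO over WT were 0.68 ± 0.58 for Tff3 (SE, adjusted p = 0.578), -0.31 ± 0.76 for Ptges (adjusted p = 0.874) and -0.86 ± 1.01 for Akr1b7 (adjusted p = 0.712). None of the 3 was called, and 0 had an unadjusted p under 0.05. In that fit 524 of all 19151 HFD genes were called. With the filter, 4.84% of the 13460 HFD genes tested were called, and the 3 genes were not among those tested. At counts this low, 0 calls of 3 do not show that the levels were equal.

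Under WD the 7 genes entered the test of N-LKO against WT liver because the tumors, fitted together with the livers, carried them past the filter. In a fit of the livers alone only 1 of the 7, Ptges, passed it (log2 fold change 0.96, edgeR adjusted p = 0.26), so the values for the other 6 are descriptive. The libraries also entered the comparisons on which the genes were selected. In the fit of all WD libraries 0 of the 7 were called by edgeR or limma-voom, and 0 had an unadjusted p under 0.05 in edgeR. DESeq2 called 0 of the 5 genes to which it gave an adjusted p, and gave none for Vil1 and Dpf1. Over all 17829 genes 0 (0%) were called by edgeR at an adjusted p under 0.05 and 2212 had an unadjusted p under 0.05, while DESeq2 called 100. Ptges was higher in each N-LKO liver than in each WT liver, 0.678 ± 0.175 against 0.344 ± 0.122 CPM (log2 fold change 0.96 ± 0.60, SE, edgeR adjusted p = 0.511). Vil1 was also higher in each N-LKO liver, 0.386 ± 0.17 against 0.0626 ± 0.0598 CPM, but its fitted log2 fold change of 2.44 had an SE of 3.97 (edgeR adjusted p = 0.808). Such an arrangement, N-LKO above WT without overlap, was found for 14.3% of tested genes and for 2 of these 7. Akr1b7 had 0.47 ± 0.155 against 0.267 ± 0.128 CPM with overlapping groups (log2 fold change 0.82 ± 0.68, edgeR adjusted p = 0.616). Tff3, Timp4 and Slc1a1 had fitted log2 differences of -0.18 ± 1.16, 0.99 ± 4.30 and 0.27 ± 1.46, and Dpf1 one of -1.63 ± 1.06. The direction for Tff3 and Slc1a1 turned when single libraries were left out.

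Related genes from lists of families, the prostaglandin pathway, intestinal epithelium and brush border were tested between tumors and livers, with the 7 genes themselves left out. Of 91 genes, 76 were listed in the WD table and 63 were tested. Some of these, Gpx2, Krt20 and Myo7b among them, passed the filter on low counts through the tumors, so their calls are a description. Tumor against N-LKO liver gave 2 higher (Svil and Gpx2) and 0 lower in edgeR (17 at an unadjusted p under 0.05, and 10 called in DESeq2), where 0.437% of all tested genes were called higher and 0.0617% lower. Tumor against WT liver gave 14 higher and 5 lower, against 8.08% and 6.8% of all genes. The same tumors enter both comparisons. The median log2 fold change of the 63 was 0.05 over N-LKO and 0.30 over WT liver, against 0.02 and 0.04 over all genes. The count of 2 was 18 without tumor 1 and 0 without any one of the N-LKO livers, and it was 1 without any one WT liver or without tumor 3. The count of 19 was 10 without WT liver 1, 7 without WT liver 2 and 12 without tumor 2. Tumor 1 also had the highest Nus1 of the tumors, 43.9 CPM against 34.4 and 28.9, and the part of this in the spread was not tested.

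Of the trefoil family, Tff1 was not listed and Tff2, 11402 bases from Tff3, was below the filter. Tff2 had 0.0502, 2.17 and 0.364 CPM in tumors (1, 49 and 7 counts) and at most 0.147 CPM in livers. Its highest value was in tumor 2, not in tumor 3, where Tff3 peaked. In the villin and gelsolin family, Svil, Vill and Gsn were higher in tumors than in WT liver, and Capg and Flii did not pass. Svil, encoding supervillin, had 53.8, 93.8 and 86.4 CPM in tumors, 33.9 to 39.1 in N-LKO and 28.3 to 35.8 in WT livers (log2 fold change 1.11 over N-LKO, edgeR adjusted p = 0.0462, and 1.28 over WT, adjusted p = 0.00824). Its call over N-LKO liver remained in 1 of 9 fits that each left out a library, the one without tumor 1. Vill, encoding villin-like protein, had 4.32, 9.67 and 3.38 CPM in tumors against 0.88 to 1.75 in N-LKO and 0.61 to 1.13 in WT livers (adjusted p = 0.0665 over N-LKO, and over WT a log2 fold change of 2.82 ± 0.47, edgeR adjusted p = 0.00957). Gsn, encoding gelsolin, rose 1.61 on the log2 scale over WT liver (edgeR adjusted p = 0.00819), but was already at 53.8 to 69.6 CPM in N-LKO livers against 62 to 109 in tumors. Tumor 2, in which Vil1 was at 172 CPM, had the highest Vill and Svil of the tumors and not the highest Gsn. The median of the 5 tested family genes was 1.28 over WT liver.

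The other TIMP genes stood at other levels. Timp3 rose over WT liver, from 38.8 to 69.4 CPM there to 84.4 to 120 in tumors, with N-LKO livers between at 68.2 to 78.5 (over WT, log2 fold change 0.84 ± 0.21, edgeR adjusted p = 0.0291), a call lost without WT liver 1 or 2, N-LKO liver 3 or tumor 2 or 3. Timp1 had 5.82, 2.53 and 2.08 CPM and Timp2 33, 30.7 and 25.8 CPM in tumors, with edgeR adjusted p of 0.219 and 0.177 over WT liver. Both were highest in tumor 1, where Timp4 was lowest.

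Among the amino acid transporters of the SLC1 family, 4 were tested besides Slc1a1 and 0 were called in either comparison by edgeR or DESeq2 (unadjusted p under 0.05 for 0 over N-LKO and 1 over WT liver). Slc1a2, the glutamate transporter of hepatocytes around the central vein and of astrocytes, had 334 to 635 CPM in WT and 349 to 418 CPM in N-LKO livers, and 204, 3.37 and 4.94 CPM in tumors (log2 fold change -2.44 over N-LKO, edgeR adjusted p = 0.309). In tumors 2 and 3 its CPM was lower than that of Slc1a1 (30.9 and 11.5), and in tumor 1 it was higher. Slc1a3, Slc1a4 and Slc1a5 stayed between 0.572 and 10.5 CPM in tumors.

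Of the prostaglandin pathway, 17 of 20 other genes were tested. Over N-LKO liver 0 were called in edgeR (5 at an unadjusted p under 0.05, and 2 called in DESeq2), and over WT liver 3 were higher (Hpgds, Ptgr1 and Abcc4) and 2 lower (Ptgs1 and Hpgd). The median log2 fold change was -0.03 over N-LKO and 0.30 over WT liver. The cyclooxygenase Ptgs1, which makes the substrate of Ptges, had 15.3, 15.1 and 7.08 CPM in tumors against 17 to 19.2 in N-LKO and 21.5 to 24.2 in WT livers (over WT, log2 fold change -0.84 ± 0.25, edgeR adjusted p = 0.0479). The inducible cyclooxygenase Ptgs2 was below the filter, at 0.351, 0.0887 and 0.208 CPM in tumors. The constitutive synthases Ptges2 and Ptges3 were at 6.92 to 12.7 and 79.4 to 94.2 CPM in tumors and did not pass (edgeR adjusted p over WT of 0.178 and 0.278). Of the genes that break prostaglandins down, Hpgd fell (74.2, 27.5 and 28.6 CPM against 77.3 to 87.3 in N-LKO and 83.5 or more in WT livers, edgeR adjusted p = 0.0454) and Ptgr1 rose (3.82, 41 and 10.9 CPM against 1.47 to 2.69 in N-LKO and 0.474 to 1.25 in WT livers, edgeR adjusted p = 0.0134). Hpgds, a prostaglandin D synthase, had 9.79, 16.4 and 8.22 CPM against 2.37 to 6.08 in WT livers (edgeR adjusted p = 0.0492), and the exporter Abcc4 18.5, 60.9 and 11.1 CPM against 4 to 10 (edgeR adjusted p = 0.0349). N-LKO livers had 5.93 to 10 CPM of Hpgds, a range that held tumors 1 and 3, and 6.92 to 9.93 CPM of Abcc4. These p are for tumors over WT liver. The calls of Ptgs1, Hpgds, Hpgd and Abcc4 were lost when any one of the 6 livers was left out, those of Hpgds, Hpgd and Abcc4 also without tumor 2, and that of Hpgd without tumor 3. Ptgr1 lost its call without WT liver 2 and in limma-voom (adjusted p = 0.0778). Ptgds, the other prostaglandin D synthase, had 0.502, 7.5 and 536 CPM in tumors and at most 0.203 CPM in livers, but did not pass the filter and was not tested. Tumor 2 held the highest Ptges, Ptgr1, Hpgds and Abcc4, and tumor 3 the highest Ptgds.

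Of the aldose reductases next to Akr1b7, Akr1b3 had 9.39, 9.19 and 5.05 CPM in tumors against 2.58 to 4.65 in WT livers (log2 fold change 1.12 ± 0.29, edgeR adjusted p = 0.0298), a call lost without WT liver 1 or 2, N-LKO liver 3 or tumor 1 or 2. N-LKO livers had 5.07 to 5.79 CPM, so tumor 3 was below all of them (edgeR adjusted p = 0.349 over N-LKO). Akr1b8 and Akr1b10 were at 0.885 to 3.97 CPM in tumors, with edgeR adjusted p of 0.896 and 0.561 over WT liver. Of 17 tested DPF and BAF genes, 0 were called over N-LKO liver in edgeR (3 at an unadjusted p under 0.05, and 2 called in DESeq2), and Smarca2 and Smarcc2 were lower than in WT liver. Smarca2, a catalytic subunit, had 95.1, 66.6 and 71.6 CPM against 118 to 147 in WT livers, with N-LKO livers reaching 122 (edgeR adjusted p = 0.0224), a call lost without WT liver 2 or tumor 3. Smarcc2, a core subunit, had 74.1, 65.1 and 53.4 CPM against 89.5 to 98.4 in N-LKO and 105 to 134 in WT livers (edgeR adjusted p = 0.0101 over WT). The paralogs Dpf2 (13.9 to 17.9 CPM in tumors) and Dpf3 (0.402 to 0.932) did not pass, and the neuronal subunit gene Actl6b was not listed.

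Genes of intestinal epithelium were read beside Tff3 and Vil1. Of 20 others on that list, 11 were listed and 5 tested, and Cdx1, Cdx2, Muc2, Alpi, Agr2, Spink4, Clca1, Isx and Sis were not listed in the WD table, the master factors of gut identity and the main gut mucin among them. Gpx2, the glutathione peroxidase of the gut, was called in both comparisons, with 5.87, 31.3 and 5.88 CPM in tumors, at most 0.196 in N-LKO and at most 0.0686 in WT livers (edgeR adjusted p = 0.0172 and 0.00563). Its call over N-LKO liver was lost without any one of the N-LKO livers. The keratin Krt20 had 11, 0.666 and 2.03 CPM in tumors, at most 0.244 in N-LKO and at most 0.0678 CPM in WT livers (edgeR adjusted p = 0.0788 over N-LKO and 0.0162 over WT), a call lost without WT liver 1 or 2. Slc5a1, the sodium-glucose transporter of enterocytes, had 15.9, 2.97 and 10.7 CPM against 0.271 to 0.953 in WT livers (edgeR adjusted p = 0.00839). N-LKO livers had 1.91 to 2.93 CPM, and tumor 2 was level with the highest of them (edgeR adjusted p = 0.0989 over N-LKO). Under HFD too Slc5a1 was at 0.958 to 2.17 CPM in N-LKO and 0.203 to 0.777 in WT livers. Fabp2, the intestinal fatty acid-binding protein, which these livers also had, fell (43 and 67 CPM in tumors 2 and 3 against 113 to 158 in WT livers, with tumor 1 just below that range, edgeR adjusted p = 0.0447), a call lost without any one of the livers and without tumor 2 or 3. Summed over the 11 genes, the CPM was 97.8 to 144 in tumors, 119 to 133 in N-LKO and 124 or more in WT livers, of which Fabp2 was the greater part.

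Different tumors carried different gut genes. Krt20, Cdh17 and Slc5a1 were highest in tumor 1, the tumor with least Vil1 and Tff3. Gpx2, Guca2a, Guca2b, Fcgbp and Lct were highest in tumor 2. Guca2a and Guca2b, which encode the guanylin peptides, had 48 and 33 counts there (2.13 and 1.46 CPM) and 1 to 4 counts in the other two. In tumor 3, where Tff3 peaked, only Lgals4 (12.6 CPM) and, with 1 count, Zg16 had their highest tumor value. The values of Cdh17, Guca2a, Guca2b, Fcgbp and Lct were below the filter and were not tested.

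Of the brush border list, 9 of 12 other genes were tested. Espn, Myo7b and Pls1 were higher than in WT liver, and 0 were called over N-LKO liver in edgeR (3 at an unadjusted p under 0.05, and 1 called in DESeq2). The median log2 fold change was 0.53 over WT and 0.49 over N-LKO liver. Espn, an actin bundler, had 1.41, 15.3 and 23.1 CPM in tumors against 0.271 to 0.686 in WT livers (edgeR adjusted p = 0.0136). N-LKO livers had 0.903 to 2.64 CPM, a range that held tumor 1 (edgeR adjusted p = 0.117 over N-LKO). Myo7b, the myosin of the tips of microvilli, had 2.31, 21.6 and 1.09 CPM against 0.372 to 0.684 in N-LKO and at most 0.0596 in WT livers (edgeR adjusted p = 0.0954 over N-LKO and 0.0139 over WT). The calls of Espn and Myo7b over WT liver were lost without WT liver 2 and in limma-voom (adjusted p = 0.144 and 0.0899). Myo7b had 7 to 14 counts in N-LKO and at most 1 in WT livers. It passed the filter through the tumors, so its p are descriptive. Pls1, the fimbrin of microvilli, had 15.1, 17 and 13.4 CPM against 2.56 to 9.3 in N-LKO and 0.203 to 4.05 in WT livers (edgeR adjusted p = 0.285 over N-LKO and 0.0237 over WT), a call lost without WT liver 1 or tumor 2. Myo7b shared with Vil1 its highest value in tumor 2, but was lowest in tumor 3, where Vil1 was lowest in tumor 1. Espn was highest in tumor 3.

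**Figure D3:**
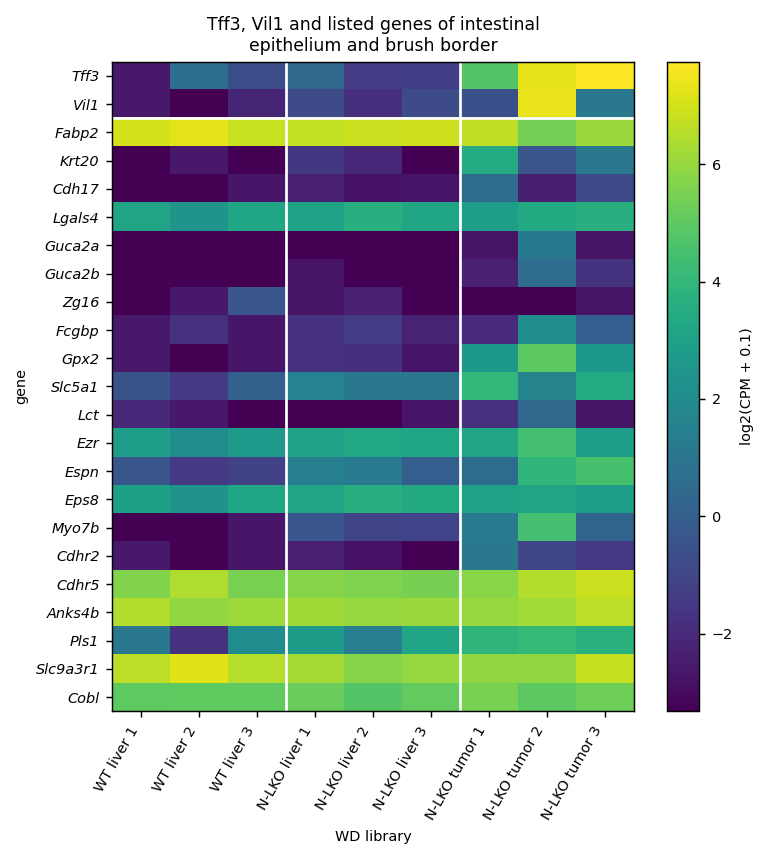
Log2(CPM + 0.1) of Tff3 and Vil1 (top 2 rows) and of the listed genes of intestinal epithelium and brush border (other rows) in the 9 WD libraries, with white lines between groups. Tumor 2 is bright for Vil1, Gpx2 and Myo7b, tumor 1 for Krt20 and Slc5a1, and genes such as Fabp2 and Cdhr5 are bright in every library.

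Markers of other cell types are given beside these values. Tff3 and Slc1a1 can also come from bile duct cells. The 12 listed cholangiocyte markers summed to 29.9 to 85.9 CPM in WT livers, 133 to 169 in N-LKO livers and 400, 223 and 550 CPM in tumors, most of it Spp1 (347, 132 and 489 CPM in tumors). The keratins Krt7 and Krt19 had 13 and 24 counts in tumor 1, 11 and 4 in tumor 2 and 1 each in tumor 3, and Epcam had 67, 2 and 2 counts. Adrenal markers, read for Akr1b7, were 2 of 8 listed genes (Cyp21a1 and Star), summing to 4.27, 12.3 and 2.39 CPM in tumors and 4.47 to 6.86 in livers, with Cyp11a1 and Nr5a1 not listed. Neuronal markers, read for Dpf1, were 5 of 8 listed and summed to 12.6, 4.57 and 16.9 CPM in tumors and 11 to 13.6 in livers, and Tubb3 was at 3, 0 and 6 counts in tumors. Pancreatic acinar markers summed to 10, 33.4 and 22.5 CPM in tumors, 8.21 to 9.62 in N-LKO livers and 6.71 to 50.9 in WT livers, the highest in WT liver 3. In tumors nearly all of this was Cela1 (9.54, 32.8 and 21.1 CPM). WT liver 3 also held counts of the other acinar markers, such as Pnlip (115) and Cel (107). Macrophage markers summed to 624, 458 and 348 CPM in tumors and 383 to 615 in livers, but they did not move alike. Clec4f had 1402, 371 and 157 counts in tumors against 1413 to 1962 in livers, and Vsig4 584, 240 and 93 against 527 to 872. Ccr2 had 655, 700 and 178 counts in tumors against 58 to 554 in livers. The 10 hepatocyte markers summed to 35189 to 61645 CPM in tumors, 39371 to 47405 in N-LKO and 54705 to 72372 in WT livers, a sum made up mostly of Alb. Of the 10 hepatocyte markers, Cyp2e1 and Tat set tumor 1 apart. F9 was also highest there (241, 191 and 124 CPM in tumors). The others were lowest in tumor 2, among them Apoa1 (3560, 1528 and 4116 CPM) and Hnf4a (523, 496 and 569 CPM). Cyp2e1 had 64724 counts in tumor 1 and 2915 and 4395 in tumors 2 and 3 (3249, 129 and 229 CPM), against 103597 to 161657 counts in livers, and Tat had 310, 124 and 131 CPM in tumors. Tumor 1 was also the lowest tumor for 6 of the 7 genes. What part other cells, or this difference between tumors, had in the values of the 7 genes was not tested.

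Genes next to the 7 were examined to see whether a wider region moved with them. Within 100 kb of the 7 genes, 31 other genes were tested over N-LKO liver. In edgeR 1 was called higher, Syn2 around Timp4, and 0 lower (1 lower at an unadjusted p under 0.05, and 2 called in DESeq2), where 0.437% and 0.0617% of all genes were called, and their median log2 fold change was 0.09. The nearest listed gene on either side was read as well, at any distance. Abcg1 beside Tff3 had 47.1, 61.9 and 63.9 CPM in tumors against 43.6 to 47.5 in N-LKO livers. On either side of Vil1, Ctdsp1 had a log2 fold change of -0.15, and Cnot9 had 19.8, 29.1 and 20.1 CPM in tumors against 15.3 to 19.1 in N-LKO livers. Slc11a1, a macrophage metal transporter within the same window as Vil1 and named after its values were seen, had a log2 ratio to the N-LKO liver mean of 2.91 in tumor 2, 0.45 in tumor 1 and -0.17 in tumor 3 (edgeR adjusted p = 0.2). Tamm41 and Pparg beside Timp4, 204015 and 108745 bases away and so outside the 100 kb, had log2 fold changes of 0.01 and -0.28. Plpp6 beside Slc1a1 had one of -0.24, and Glis3, 154971 bases to its other side, one of 1.46. Glis3 had 6.07, 22.1 and 12.7 CPM in tumors against 3.79 to 6.96 in N-LKO livers, the same order of tumors as Slc1a1 (edgeR adjusted p = 0.136). Asb6 and Tor1b beside Ptges had 0.01 and -0.33, Akr1b10 and Bpgm beside Akr1b7 0.20 and 0.34, and Ppp1r14a and Sipa1l3 beside Dpf1 1.00 and -0.05, none of them called in edgeR. Usp20, within 100 kb of Ptges, had 8.74, 32.1 and 23.7 CPM in tumors against 9.39 to 15.1 in N-LKO livers (edgeR adjusted p = 0.306), the tumor order of Ptges. Gm15318, near Tff3, had 3.51, 3.46 and 9.05 CPM against 0.901 to 2.2 in N-LKO and 2.13 to 3.93 in WT livers (edgeR adjusted p = 0.102 over N-LKO). Both were named after their values were seen.

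**Figure D4:**
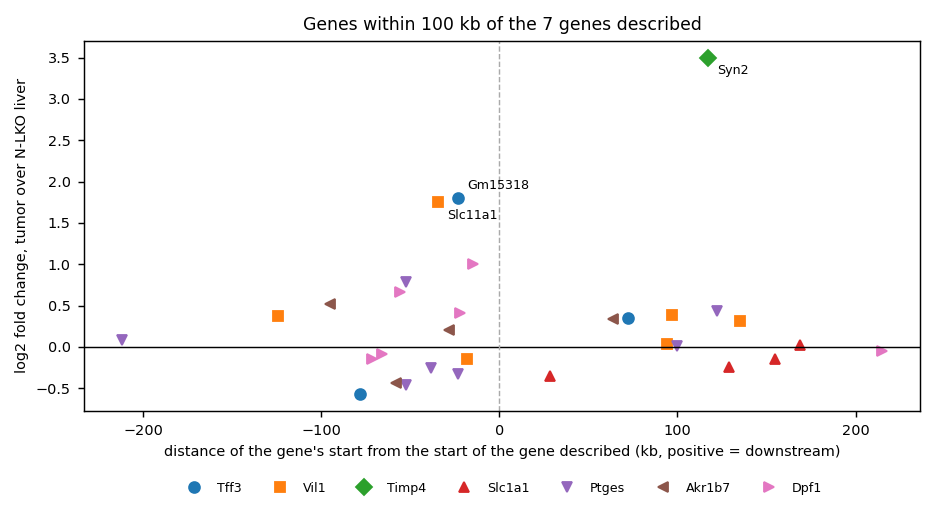
Log2 fold change of tumor over N-LKO liver for the 31 tested genes within 100 kb of the 7 genes, against the distance in kb between the start of the gene and the start of the gene described, with positive distances downstream and 1 symbol per gene described. Syn2, which encloses Timp4, is at 3.50, and the median of the 31 is 0.09.

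Over the 9 WD libraries, the genes whose log2 CPM was most like that of each of the 7 were searched among 12647 genes with a mean of at least 1 CPM. These correlations rest on the contrast of 3 tumors with 6 livers and on shared libraries, and are given as a description. Slc1a1 and Ptges were each among the 3 genes most like the other (Pearson r = 0.986). Slc1a1 was also like Mecom (0.985) and Gpx2 (0.984), and Ptges like Gimap6 (0.992) and Kctd12b (0.988). Tff3 was most like Rasl10b (0.983), Prnd (0.979) and Pla1a (0.978), and Dpf1 like Car5b (0.996) and the same Prnd and Rasl10b (0.973 and 0.969). Rasl10b had 8.48, 12.2 and 20.2 CPM in tumors and 0.549 to 1.22 in livers, the same order of tumors as Tff3. Vil1 was most like St6galnac2 (0.987), which had 3.11, 31.3 and 3.69 CPM in tumors, then Dcp2 (0.984) and Fam92a (0.976). Timp4 was most like Mgat5 (0.991), Esam (0.989) and Kdm5a (0.987), and Akr1b7 like Dnah1 (0.977), Slc51b (0.975) and Sumo2 (0.965). Dnah1 had 13.6, 8.56 and 11.4 CPM, with its highest value in tumor 1 as for Akr1b7.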

How the data were processed

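RNA was measured in 17 mouse liver and tumor samples. The authors removed ribosomal RNA, sequenced single-end reads and, per the paper's methods, aligned them with TopHat2, while the submitters' processing notes name STAR, Partek and mm9. The authors quantified genes in Partek by expectation-maximization, which shares reads between features, and deposited the estimated counts unscaled. Replicates were not pooled. Gene positions in the files matched GRCm38 (GENCODE M21), not mm9, for most genes: 97.7% of HFD and 97.4% of WD symbols, and 97.2% and 96.8% with the same start. Positions are from that annotation. Reads of near-identical, overlapping or antisense genes are uncertain. The study's own test, cuffdiff, needs reads, which were not used here.

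The 7 genes and all gene lists were chosen with earlier results of these data known. Estimated counts were rounded and tested in edgeR 4.0.16 (R 4.3.3; quasi-likelihood F test, TMM scaling, filterByExpr, Benjamini-Hochberg adjusted p under 0.05 over all genes), with the 8 HFD livers fitted alone and the 9 WD libraries together. The SE is approximate. CPM used TMM-scaled totals. Where no library of a group exceeded 3 counts (the floor), the fold is a lower bound: the tumor mean over the highest CPM that 3 counts make in that group's libraries. Intervals are exact binomial (95%). Genes named were the 7, Nus1, every called related gene with its nearest relatives, the flanking listed genes without automatic names, and the 3 genes of highest correlation (log2 CPM, prior count 2). Overlapping genes, Ptgds, Slc11a1, Usp20, Gm15318 and uncalled markers with their values were added after these were seen. Replicate libraries differed by more than sampling noise (chi-square per degree of freedom 8.74 to 116 over 21 pairs). DESeq2 1.42.0 size factors and Wald test, limma 3.58.1 (voom), other filters, a replicate block and leaving out each library were the alternatives. The code was tested on simulated counts.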

Additional observations from a re-analysis of the deposited data

Results flagged for a closer look

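Of the 6 groups of 4 livers tested for a library far from the others, 1 met Dixon's criterion: Akr1b7 in HFD N-LKO livers, where replicate 3 was at 0 CPM and the other three at 0.0798 to 0.0827 CPM. The gap is that between 0 counts and 1 count. Chance alone gives such a result in about 1 of 20 groups.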

How the results depend on the processing

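None of the 7 genes was called between N-LKO and WT liver, under HFD or WD, under any alternative that tested it, and leaving out a library gave 0 throughout. These tests covered few genes. Under WD the 7 passed the filter through the tumors, a fit of the livers alone tested 1 (Ptges, edgeR adjusted p = 0.26), and DESeq2 gave no adjusted p for Vil1 and Dpf1. Under HFD 0 of the 3 listed genes were tested except without the filter (3) or without some libraries (1). Under WD, the log2 fold change of Tff3 (-0.18) turned to 0.18 in limma-voom and 0.12 with the replicate block, and ran from -1.19 to 0.94 with single libraries left out; that of Slc1a1 (0.27) ran from -0.27 to 1.86. The cause was not tested. Related genes called over N-LKO liver (2) were 1 without the filter, 1 at a mean of at least 1 CPM, 10 in DESeq2, 0 in limma-voom, 1 with the replicate block, 0 in a fit of the 2 groups alone, and 0 to 18 with a library left out. Those over WT liver (19) were 21 in DESeq2, 14 in limma-voom, 14 with the replicate block, 10 in a fit of the 2 groups alone and 7 to 25 with a library left out. Over all genes, tumor against N-LKO liver gave 89 calls, 1021 in DESeq2, 18 in limma-voom, 36 with the replicate block and 2193 without tumor 1. Libraries with the same replicate number did not deviate together (correlations -0.124 to 0.107), so these numbers were not taken to pair samples. The library names carry other numbers, shared by N-LKO liver 1 and tumor 1 and by N-LKO liver 3 and tumor 2. The deviations of these pairs correlated at 0.101 and 0.0792, the highest of any N-LKO liver with any tumor, the next being 0.0591 (N-LKO liver 2 and tumor 2). No fit paired samples by these names, as the replicate block used the replicate numbers. Whether the pairs came from the same mice was not tested. With 1 floor of 3 counts over a group, the bounds over N-LKO liver were 890 for Timp4 and 21.2 for Dpf1, and over WT liver 895 for Vil1, 680 for Timp4 and 16.2 for Dpf1. Other scalings moved no fold by more than the SD between tumors. Livers at 0 to 25 counts and 3 unlike tumors limit every fold, that of Vil1 most: over N-LKO liver it was 1.43 to 447 by tumor. A bound depends on library depth.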
